A study of Mus musculus with 24 samples.

Results

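Heart was compared with skeletal muscle, the 2 striated muscles among 8 mouse tissues profiled in triplicate on Illumina bead arrays. The comparison used 6 of the 24 arrays, namely 3 of heart and 3 of skeletal muscle, from untreated male C57BL/6 mice aged 7 weeks. The other tissues were adipose ("fat" in the labels), bladder, liver, lung, peritoneal mesothelium, and mesothelium of pleura and pericardium pooled together, the mesothelium being stripped from many animals. Neither the chamber of the heart nor the muscle of the skeletal sample is given. The questions were which transcripts differ between the 2 muscles in either direction, and which are high in both against the remaining 6 tissues. A probe entered the comparison if its detection score exceeded 0.99 on all 3 arrays of heart or all 3 of skeletal muscle, which held for 10580 of 46120 probes (22.9%). Of these, 3684 could be given a gene name, and the gene names below are therefore a sample of each list and not the whole of it.

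Heart and skeletal muscle are built from the same sarcomere, in which myosin pulls on actin after calcium is released from the sarcoplasmic reticulum. The parts are encoded by different members of the same gene families. In heart, calcium entering through the L-type channel opens ryanodine receptor 2 and is returned by the SERCA2 pump and the sodium-calcium exchanger, whereas in skeletal muscle the voltage sensor opens ryanodine receptor 1 directly and the pump is mainly SERCA1. Cardiomyocytes are joined end to end by intercalated discs, paced without nerve input and fuelled mostly by fatty acids. Skeletal fibres are innervated at neuromuscular junctions, and fast fibres rely on glycolysis.

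The heart arrays detected 10612 to 11322 probes each and the skeletal muscle arrays 9365 to 10103, within the range of 8862 to 13441 over all 24. Correlations of log2 signals were 0.98 to 0.985 among heart arrays, 0.967 to 0.99 among skeletal muscle arrays, and 0.904 to 0.92 between the tissues. Of the 12 heart markers searched for, 5 had a named probe (Myh6, Myl7, Mybpc3, Gata4 and Tbx5) and each was detected on all heart arrays and on no skeletal muscle array. Of the 14 skeletal muscle markers, 2 had a named probe detected there (Myh1 and Chrna1), and neither was detected in heart. Muscle transcripts were not confined to the muscle arrays. Myl7 read 10.48 to 11.38 on the lung arrays. The first adipose array carried skeletal muscle genes (Actn3 at 13.01, against 5.37 and 4.96 on the other 2 adipose arrays) while Mybpc3 was 4.76 on it, and the pleural and pericardial arrays carried Actn3 at 8.27 to 9.68 and Myl7 at 12.97 to 13.7. These arrays do not enter the difference between heart and skeletal muscle, but they widen the shared estimate of spread and raise the bar for a probe to be high in both muscles. Whether the arrays of a group came from separate animals is not given, so the p-values measure the spread between arrays, which may be technical.

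Between heart and skeletal muscle, 1285 probes were higher in heart (12.1% of those compared) and 1004 were higher in skeletal muscle (9.49%), by a B-statistic above 0 and at least a 2 fold difference. The B-statistic is limma's log odds that a probe differs, here with all 24 arrays setting the spread. At an adjusted p below 0.05 with no minimum fold, 2333 and 1923 probes passed. The other 8291 probes were not called, and the middle 50% of all 10580 lay between −0.51 and 0.64 on the log2 scale (heart minus skeletal muscle, median 0.03). Fitted differences were 8 fold or more for 248 of the probes higher in heart and 205 of those higher in skeletal muscle. These counts include probes undetected in the lower tissue, whose difference is uncertain in size and can be under 8 fold. Of the called probes, 594 of those higher in heart were detected on no skeletal muscle array, and 306 of those higher in skeletal muscle on no heart array. Among the 7853 probes detected on every array of both muscles the numbers were near equal, at 564 (7.18%) and 553 (7.04%). With the background estimated from all control scores, averaged ones included, the counts were 637 and 646. That setting ended the calls of 30 named probes, most of them dim, among them Cacnb2, Jph2, Camk2d, Kcnd2, Gjc1, Abcc8, Irx4, Hoxd8, Sox6, Adrb1, Dsg2, Dysf, Smyd1, Msln and Wt1. It also ended those of Aldoa, Idh1, Col1a2, Bpifa1, Ltf, Iglv1, IGLC2, the second Tbx1 probe, 1 of 2 Cdh2 probes and the called probes of Asph, Dtna, Gpi1, Tpm3 and Etfa.

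**Figure D1:**
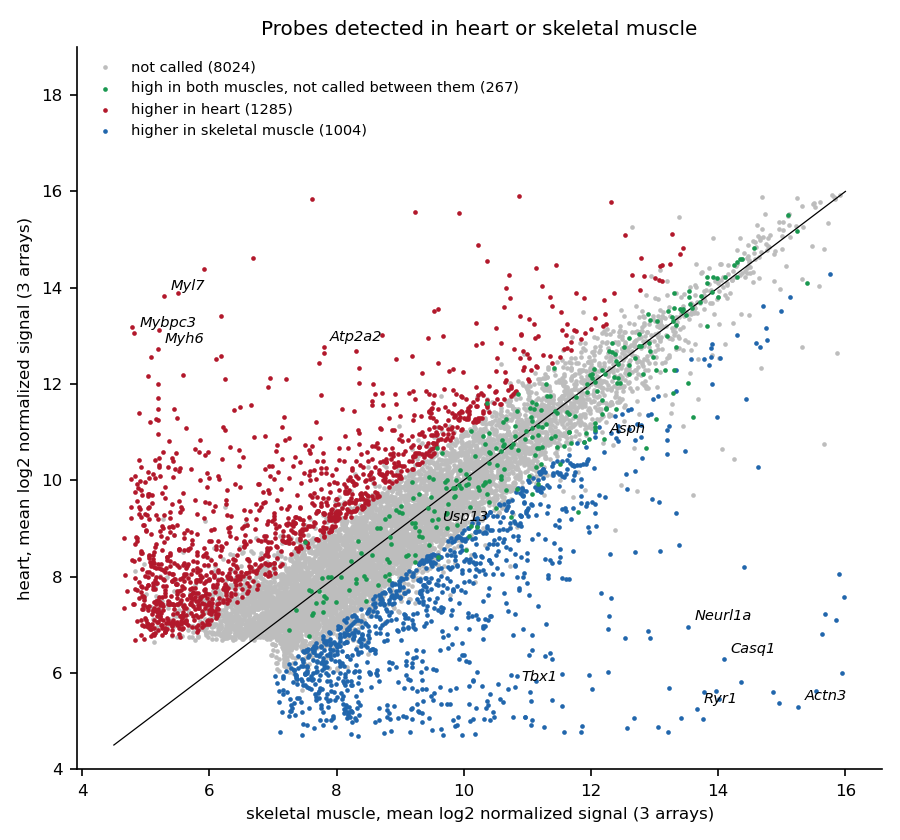
Mean log2 normalised signal of each compared probe in heart (vertical axis) against skeletal muscle (horizontal axis), each point a probe and each mean over 3 arrays, in red where higher in heart, in blue where higher in skeletal muscle, in green for the 267 probes high in both muscles and not called between them, and in grey otherwise, with the line of equal signal. The 1285 red points lie above the line and the 1004 blue points below it, and many of each sit at the lower end of the other tissue's axis.

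The probes higher in skeletal muscle were mostly also higher there than anywhere else, whereas those higher in heart were not. Of the 1004 probes, 819 (81.6%) had their highest mean in skeletal muscle, and 508 passed the same rule against every one of the 7 other tissues. Of the 1285 probes higher in heart, 367 (28.6%) had their highest mean in heart and 181 passed against all 7 others. The rest were highest in lung (210), liver (168), bladder (152), peritoneal mesothelium (139), adipose (125) or pleural and pericardial mesothelium (124). Correlations of single arrays with those of the pleural and pericardial pool averaged 0.913 for heart and 0.842 for skeletal muscle. RNA was taken from total tissue, so fewer cells of a type and less RNA per cell cannot be told apart for any gene below.

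Sarcomere genes were among the most widely separated. A probe that none of the lower tissue's arrays detected has only a lower bound on its difference, computed against the higher of the probe's own signal and the lowest signal of a detected probe on each array, and is given as "at least". Myl7, the atrial regulatory light chain (chromosome 11), measured 13.79, 13.85 and 13.81 (log2 signal) in heart arrays 1, 2 and 3 and 5.72, 5.13 and 5.01 in skeletal muscle, at least 118-fold higher in heart (adjusted p = 1.83e-15). Mybpc3, cardiac myosin-binding protein C (chromosome 2), measured 13.23, 13.02 and 12.92 in heart and 4.91, 4.8 and 4.72 in skeletal muscle, at least 70-fold higher (adjusted p = 7.45e-17). Myh6, the alpha myosin heavy chain of the adult mouse ventricle and atrium (chromosome 14), measured 12.29, 12.56 and 13.33 against 5.16, 5.31 and 5.12, at least 55.6-fold higher (adjusted p = 6.67e-10). For these 3 genes every heart array lay far above every skeletal muscle array, and no skeletal muscle array detected them. Myh7, the beta heavy chain that slow skeletal fibres also use, was detected on every array of both, at 10.89, 10.11 and 11.46 in heart and 9.26, 9.06 and 8.78 in skeletal muscle. Its difference was 1.79 ± 0.277 (log2, SE), or 3.45 fold (adjusted p = 9.26e-05), with no overlap between the groups. The cardiac and slow sarcomere list did not hold Mybpc1, a slow skeletal gene counted in the skeletal list below. Of its 6 detected probes, 5 were higher in heart and none in skeletal muscle (list median 4.66 against 0.03 over all probes compared). The exception was a second probe for Tpm3, slow tropomyosin (0.66, adjusted p = 0.577), whose other detected probe was 2.42 fold higher in heart. That Tpm3 call was lost without heart array 2 or 3 or skeletal muscle array 2 or 3 (adjusted p = 0.00413 to 0.0116), and the Myh7 call when the 6 muscle arrays were fitted alone (0.0123).

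The skeletal sarcomere genes ran the other way, with 3 of 3 detected probes of that list higher in skeletal muscle (median −8.71). None of them was detected on all heart arrays. They entered through skeletal muscle alone, so their direction was largely set by the filter. Actn3, the alpha-actinin of fast fibres (chromosome 19), measured 15.31, 15.21 and 15.26 in skeletal muscle and 5.83, 5.01 and 5.06 in heart, at least 403-fold higher (adjusted p = 6.4e-06). Mybpc1, slow skeletal myosin-binding protein C, measured 13.96, 13.67 and 13.66 in skeletal muscle and 4.96, 5.28 and 4.92 in heart, at least 143-fold higher (adjusted p = 8.76e-08). Both were uniform over the skeletal muscle arrays and undetected on every heart array. A second Mybpc1 probe was not detected on all 3 arrays of either muscle. The same held for the second probes of Chrna1, Cacna1c, Cacnb2 and Hopx, genes given below. Myh1, the fast IIx myosin heavy chain, was not uniform, measuring 10.86 and 10.9 on skeletal muscle arrays 2 and 3 and 7.3 on array 1, against 4.66 to 4.75 in heart. The bound was at least 8.45-fold (adjusted p = 4.29e-06), the fitted difference was −6.17 without skeletal muscle array 1 and −4.37 without array 3, and the call was lost when the 6 muscle arrays were fitted alone (adjusted p = 0.0125). Neb, the nebulin of the skeletal thin filament, showed the same split at 5.06, 10.06 and 10.17 and did not enter the comparison because array 1 did not detect it. Of the 3684 named probes compared, 12.6% were higher in heart and 7.41% in skeletal muscle, which is the background for these and the later lists. A probe detected throughout only 1 muscle is unlikely to be called higher in the other, so list counts partly follow the filter. Detected on all arrays of both muscles were 2 of 6 cardiac and slow sarcomere probes, 2 of 9 channel probes and 2 of 7 cardiac factor probes. So were 1 of 6 myogenic and limb factor probes and 3 of 7 natriuretic and endocrine probes.

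**Figure D2:**
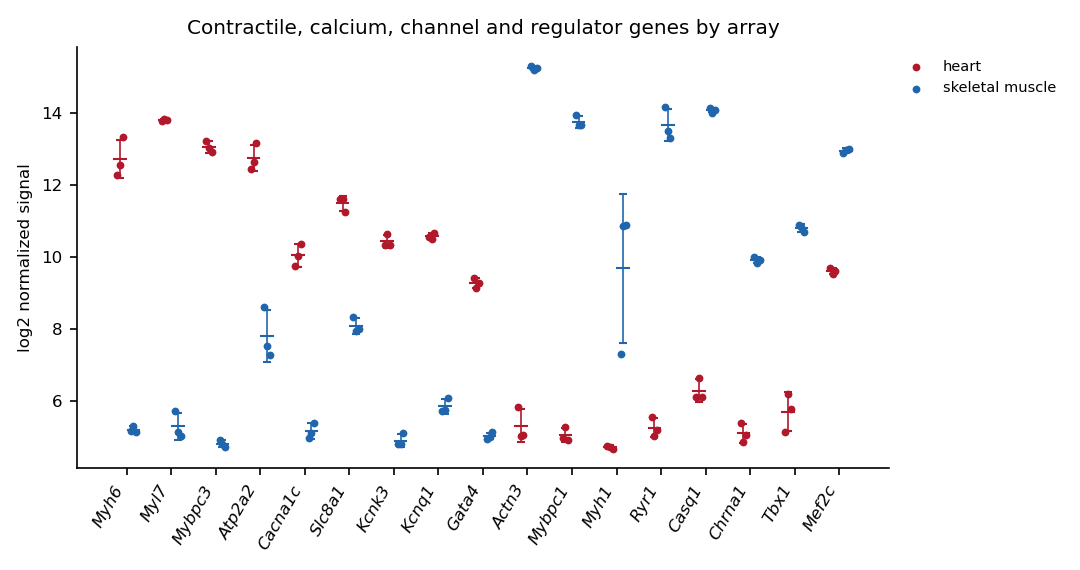
Log2 normalised signal of contractile, calcium, channel and regulator genes on the 3 heart (red) and 3 skeletal muscle (blue) arrays, each point an array, with the mean and SD as bars. The groups are apart for all 17 genes shown, and Myh1 on skeletal muscle array 1 (7.3) lies well below arrays 2 and 3 (10.86 and 10.9).

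Promoter sequence was examined for the genes at the extremes of each set, to show their sequence context. RefSeq promoters of mouse build GRCm38.p6, spanning 250 bases before to 50 after the annotated start, matched 28 of the 42 genes with the largest differences, and were searched on both strands for the MEF2 site, the CArG box bound by serum response factor, the E-box CAGCTG bound by myogenic bHLH factors and the GATA site AGATAA. The 250 bases before the start are shown 5′ to 3′ along the gene for 2 heart genes, 1 skeletal muscle gene and 2 genes high in both muscles, in lower case with the matches in capitals.
Myl7, chr11:5898783-5899032, minus strand, higher in heart: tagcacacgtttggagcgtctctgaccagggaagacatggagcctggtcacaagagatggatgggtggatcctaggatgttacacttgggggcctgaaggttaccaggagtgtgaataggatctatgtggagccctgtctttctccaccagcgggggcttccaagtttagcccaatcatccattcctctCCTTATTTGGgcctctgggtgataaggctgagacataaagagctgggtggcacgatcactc
Mybpc3, chr2:91117894-91118143, plus strand, higher in heart: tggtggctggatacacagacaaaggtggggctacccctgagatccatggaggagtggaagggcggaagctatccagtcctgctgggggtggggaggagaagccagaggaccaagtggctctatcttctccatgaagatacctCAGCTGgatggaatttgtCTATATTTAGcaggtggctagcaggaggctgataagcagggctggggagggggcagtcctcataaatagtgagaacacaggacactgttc
Chrna1, chr2:73580339-73580588, minus strand, higher in skeletal muscle: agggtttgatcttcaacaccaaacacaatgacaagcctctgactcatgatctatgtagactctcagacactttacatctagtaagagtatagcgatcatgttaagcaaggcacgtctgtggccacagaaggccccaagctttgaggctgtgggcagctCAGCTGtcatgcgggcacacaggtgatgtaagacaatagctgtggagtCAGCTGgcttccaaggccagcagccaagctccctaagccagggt
Alpk3, chr7:81057350-81057599, plus strand, high in both: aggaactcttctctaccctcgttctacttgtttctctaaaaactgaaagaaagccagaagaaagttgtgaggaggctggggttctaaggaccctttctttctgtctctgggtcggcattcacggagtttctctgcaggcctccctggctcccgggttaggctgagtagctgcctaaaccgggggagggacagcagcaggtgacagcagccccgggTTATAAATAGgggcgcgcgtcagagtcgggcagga
Usp13, chr3:32817376-32817625, plus strand, high in both: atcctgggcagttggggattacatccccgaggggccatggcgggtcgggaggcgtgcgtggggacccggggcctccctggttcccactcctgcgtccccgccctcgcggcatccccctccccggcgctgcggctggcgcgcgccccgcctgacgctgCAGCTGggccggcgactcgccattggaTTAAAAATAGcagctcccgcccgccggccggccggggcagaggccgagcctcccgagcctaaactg
The Myl7 window held a CArG box starting at −61. That of Mybpc3 held a MEF2 site at −90 and an E-box at −108. The Chrna1 window held E-boxes at −92 and −44, Alpk3 a MEF2 site at −35, and Usp13 a MEF2 site at −66 with an E-box at −93. None of the 4 motifs overlapped another in these windows. Every gene shown has a match, so the windows shown do not stand for the whole set. Other genes of the set with a promoter, among them Myh6, Frmd5, Ryr1, Tbx1, Tuba4a and Trak1, had no match to any of the 4 motifs. A MEF2 match was present in 882 of 27025 promoters (3.26%), in 4 of 315 for named genes higher in heart (1.27%), 5 of 202 higher in skeletal muscle (2.48%) and 9 of 76 high in both (11.8%). The 9 were 2310002L09Rik, Abcc9, Alpk3, Ankrd40, Atcayos, Fgf13, Lrrc39, Synpo2l and Usp13. For the CAGCTG E-box the shares were 16.1% of all promoters, 20.3%, 18.8% and 18.4%, for the GATA site 11.4%, 6.35%, 5.94% and 7.89%, and for the CArG box 1.57%, 1.59%, 0.99% and 0 of 76. These are letter matches, given as a description and without a test.

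Calcium handling genes were called in both directions, with 6 of 12 detected probes higher in heart and 3 higher in skeletal muscle (median 0.11). Ryr1, the release channel of skeletal muscle (chromosome 7), measured 14.17, 13.51 and 13.32 in skeletal muscle and 5.54, 5.03 and 5.19 in heart, at least 133-fold higher (adjusted p = 1.1e-08). Casq1, the calcium-binding calsequestrin of fast fibres, measured 14.14, 14.02 and 14.1 against 6.1, 6.64 and 6.1 in heart, where 1 of 3 arrays detected it (adjusted p = 1.17e-07). Its fitted difference of −7.81 ± 0.718 is uncertain in size, because the heart values lie near the detection floor, and ranged from −8.62 to −6.49 over the alternatives. Jph2, a junctophilin that ties the surface membrane to the reticulum, was 2.66 fold higher in skeletal muscle (adjusted p = 8.39e-08). On the heart side, Atp2a2, which encodes SERCA2, measured 12.45, 12.65 and 13.17 in heart and 8.62, 7.51 and 7.27 in skeletal muscle, a difference of 4.96 ± 0.356 or 31.1 fold (adjusted p = 3.28e-09). All 6 arrays detected it and the groups did not overlap. Cacna1c, the pore of the cardiac L-type channel, measured 9.74, 10.03 and 10.37 in heart and was undetected in skeletal muscle, at least 8.68-fold lower there (adjusted p = 6.9e-13), and its beta subunit Cacnb2 was at least 3.07-fold lower (adjusted p = 7.23e-08). Slc8a1, the sodium-calcium exchanger, measured 11.61, 11.6 and 11.26 in heart and 8.34, 7.93 and 8.0 in skeletal muscle, a 10.5 fold difference (adjusted p = 1.55e-10). Camk2d, the main cardiac CaM kinase II, was 2.35 fold higher in heart (adjusted p = 0.000742), a call lost without heart array 1 or 2 or skeletal muscle array 1 (0.00578 to 0.00723). Both probes for Ryr2, the cardiac release channel, were detected on at most 2 heart arrays and did not enter the comparison. The probes for Asph, whose locus also encodes junctin and junctate, disagreed, one being 3.18 fold higher in heart and the other reading −1.35 (adjusted p = 0.308). Srl, a calcium-binding protein of the reticulum (−1, adjusted p = 0.396), and Cacna2d1, a channel subunit that both muscles use (−1.19, adjusted p = 0.262), were not called.

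Among ion channels and gap junction genes 6 of 9 detected probes were higher in heart and none in skeletal muscle (median 1.77). Kcnk3, the background potassium channel TASK-1, measured 10.33, 10.65 and 10.33 in heart and 4.8, 4.79 and 5.09 in skeletal muscle, at least 11.4-fold higher (adjusted p = 7.94e-10). Kcnq1, the slow delayed rectifier that repolarises cardiomyocytes, measured 10.56, 10.51 and 10.68 against 5.71, 5.74 and 6.09, at least 12.6-fold higher (adjusted p = 1.56e-12). Neither channel was detected on a skeletal muscle array. Kcnd2, a transient outward potassium channel, was at least 2.26-fold higher, Gjc1, the connexin of conducting tissue, at least 1.93-fold, and Abcc8, the sulphonylurea receptor SUR1, at least 1.83-fold. The other sulphonylurea receptor, Abcc9, was not called between the tissues (−0.45, adjusted p = 0.313) and was among the probes high in both muscles. Gja5, connexin 40, read 0.95 (adjusted p = 0.0228) and Atp1b1, a sodium pump subunit, −0.48 (adjusted p = 0.255), and neither was called.

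Transcription factors were likewise called in both directions. Gata4, a regulator of cardiac development, measured 9.42, 9.15 and 9.27 in heart and 4.94, 5.0 and 5.12 in skeletal muscle, at least 5.1-fold higher (adjusted p = 1.38e-10). Prox1 was at least 5.95-fold higher and Irx4, which marks the ventricle, at least 1.34-fold, and both were detected on every heart array and on no skeletal muscle array. Hopx, a homeodomain-only cofactor, measured 12.68, 12.48 and 12.8 in heart and 7.7, 8.03 and 7.7 in skeletal muscle, a 28.7 fold difference (adjusted p = 2.7e-09), and its highest mean was in lung (14.62). Tbx5, a further cardiac factor, read 6.8 to 6.85 in heart and 5.61 to 6.6 in skeletal muscle and was not called (0.88 ± 0.305, adjusted p = 0.0737). Mef2c, which acts in both lineages, measured 12.89, 12.98 and 13.01 in skeletal muscle and 9.68, 9.52 and 9.62 in heart, 10.2 fold higher in skeletal muscle (adjusted p = 1.16e-06). Mef2a was not called, reading 7.17 to 7.32 in heart and 5.05, 8.13 and 8.16 on the skeletal muscle arrays, and its difference of 0.14 became −0.89 without skeletal muscle array 1. Among the cardiac factors 4 of 7 detected probes were thus higher in heart and 1 in skeletal muscle, and among the myogenic and limb factors 4 of 6 were higher in skeletal muscle and none in heart.

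The probes higher in skeletal muscle in that second list were from 3 genes. Tbx1, a T-box factor of branchiomeric muscle in the mouse embryo, measured 10.89, 10.83 and 10.69 in skeletal muscle and 5.13, 6.2 and 5.76 in heart, at least 18.3-fold higher (adjusted p = 2.46e-11), and its second probe was at least 1.82-fold higher. Hoxd8, a homeobox gene of trunk position, was at least 3.3-fold higher, though its highest mean was in bladder. One Sox6 probe was at least 2.35-fold higher (adjusted p = 1.59e-07) and the other read −1.09 (adjusted p = 0.00783) and was not called. Sox6 represses slow fibre genes in mouse. Nfix, a nuclear factor of fetal muscle, read −0.74 (adjusted p = 0.00195), short of 2 fold.

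Of the genes listed for natriuretic and endocrine signals, which included autonomic receptors, 4 of 7 detected probes were higher in heart and 0 in skeletal muscle (median 1.41), and of the 2 detected probes of the neuromuscular junction 1 was higher in each. Chrm2, the muscarinic receptor through which the vagus slows the heart, measured 9.21, 9.38 and 9.28 in heart and 4.69, 5.19 and 4.81 in skeletal muscle, at least 5.13-fold higher (adjusted p = 6.56e-13). Adrb1, the main cardiac beta-adrenergic receptor, was at least 1.84-fold higher (adjusted p = 1.57e-07). Chrna1, the alpha subunit of the acetylcholine receptor at the neuromuscular junction, whose promoter is shown above, measured 9.99, 9.83 and 9.91 in skeletal muscle and 5.38, 4.84 and 5.06 in heart, at least 9.88-fold higher (adjusted p = 8.19e-08). Agrn, which clusters that receptor but is made by many tissues, was 3.75 fold higher in heart (adjusted p = 6.12e-09) and highest in lung. Fndc5, the precursor of irisin, was higher in heart on both of its probes, by 4.42 and 2.65 fold, and both probes were high in the 2 muscles against the other tissues. Igf1 (0.24, adjusted p = 0.8) and Fst, follistatin (−0.78, adjusted p = 0.114), were not called.

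Cell junction and costamere genes divided between the tissues, with 4 of 18 detected probes higher in each (median 0.15). Without the first adipose array 4 were higher in heart and 6 in skeletal muscle, since Ank1 (−2.11) and Flnc (−1.42) were then called. Pkp2, a plakophilin of the desmosome, measured 11.04, 11.01 and 10.82 in heart and 5.13, 5.42 and 5.04 in skeletal muscle, at least 16.3-fold higher (adjusted p = 2.39e-09). Dsg2, its desmosomal cadherin, was at least 2.09-fold higher, and 2 probes for Cdh2, N-cadherin, were higher in heart, one by 6.23 fold with 1 skeletal muscle array detecting it (adjusted p = 3.07e-08). Jup, plakoglobin, read 0.60 (adjusted p = 0.178). On the skeletal side, Capn3, the muscle calpain, was at least 6.65-fold higher (adjusted p = 2.95e-11), Plec, plectin, 2.76 fold (adjusted p = 4.5e-08) and Dysf, dysferlin, which reseals the sarcolemma, 2.5 fold (adjusted p = 0.000122), a call lost with the 6 muscle arrays alone (adjusted p = 0.0174). One Dtna probe (dystrobrevin) was at least 2.22-fold higher in skeletal muscle, while the other read −0.39 and was high in both muscles. The dystrophin-associated genes Dag1 (0.20), Sgcb (0.11 and 0.26) and Sspn (0.66) were not called.

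Glycolysis was the metabolic list with the most calls, 8 of 17 detected probes being higher in skeletal muscle and 3 in heart (median −1.34), and some isozymes of 1 step differed in opposite directions. Ldha, the lactate dehydrogenase subunit of fast muscle, measured 14.61, 14.61 and 14.57 in skeletal muscle and 12.86, 12.94 and 12.75 in heart, 3.36 fold higher in skeletal muscle (adjusted p = 2.86e-06). Ldhb, the heart-type subunit, measured 13.84, 13.81 and 13.8 in heart and 11.63, 11.22 and 11.21 in skeletal muscle, 5.5 fold higher in heart (adjusted p = 3.69e-10). Neither gene overlapped between the groups. Pfkl, the liver-type phosphofructokinase, was 7.33 fold higher in heart, at 12.11, 12.28 and 12.26 against 9.47, 9.38 and 9.17 (adjusted p = 8.33e-09). Its muscle-type counterpart Pfkm was 5.35 fold higher in skeletal muscle on one probe (adjusted p = 0.000705) and read −1.29 on the other, which was not called (adjusted p = 0.158). Pkm was 3.65 fold, Pgk1 2.82 fold, Aldoa 2.78 fold and Tpi1 2.52 fold higher in skeletal muscle, and of the Gpi1 probes one was 2.47 fold higher and the other read −2.51 (adjusted p = 0.0306) and was not called. The bifunctional enzymes that set fructose 2,6-bisphosphate split, Pfkfb2, the heart isozyme, being 2.43 fold higher in heart and Pfkfb3 3.02 fold higher in skeletal muscle. Eno3, the muscle enolase, read −1.54 ± 0.777 (adjusted p = 0.289) although its arrays did not overlap, at 15.48 to 15.65 in skeletal muscle and 13.98 to 14.14 in heart. Without the first adipose array, which carried muscle transcripts, Eno3 was called (adjusted p = 5.1e-06), as was the second Pfkm probe (0.000163), and the list stood at 10 higher in skeletal muscle and 3 in heart. The Aldoa call was lost without any 1 of the 6 muscle arrays (adjusted p = 0.00515 to 0.0112), that of Gpi1 without any but heart array 3, that of Pfkfb3 without heart array 1 or skeletal muscle array 1, and that of the first Pfkm probe without heart array 1 or skeletal muscle array 2 or 3. Gapdh read −0.37 (adjusted p = 0.498).

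Fewer fatty acid and mitochondrial genes were called. Of 12 detected probes for fatty acid uptake and oxidation, 3 were higher in heart and none in skeletal muscle (median 1.00), and 11 of the 12 differences were positive. Lpl, the lipase that frees fatty acids from lipoproteins, measured 15.26, 15.11 and 14.95 in heart and 13.53, 13.14 and 13.14 in skeletal muscle, 3.57 fold higher (adjusted p = 1.22e-07). Hadhb, the thiolase subunit of the trifunctional protein, was 2.28 fold higher (adjusted p = 3.54e-06) and Etfa, an electron transfer flavoprotein, 2.15 fold (adjusted p = 0.00217), with a second Etfa probe at 0.90. Fabp3, the heart fatty acid-binding protein, measured 15.9, 15.95 and 15.83 in heart and 14.87, 14.66 and 14.53 in skeletal muscle and was not called (1.21 ± 0.806, adjusted p = 0.507), while without the first adipose array it was (adjusted p = 0.00234). Its heart values lie close to the highest value on the arrays (15.97), so the difference may be understated. Bdh1, which oxidises ketone bodies, read 1.55 (adjusted p = 0.0163) and was likewise called without that array (0.00134). In the tricarboxylic acid cycle list 2 of 12 detected probes were higher in heart, Idh3b by 5.26 fold and Idh1 by 2.12 fold. The remaining 10 ranged from −0.12 to 0.74. Idh1 and Mdh1, the latter reading 0.74, encode cytosolic isozymes and not enzymes of the cycle itself. The calls of Etfa (adjusted p = 0.00543 to 0.0165) and Idh1 (0.00601 to 0.0165) were lost without any 1 of the muscle arrays but heart array 3.

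Of 48 detected respiratory chain probes, 4 were higher in heart, none in skeletal muscle, and 44 were not called (median 0.25). The 4 were 2 probes for Cox6a1 (3.39 and 3.79 fold), Cox8a (4.42 fold) and Atpif1 (4.69 fold). Cox6a1 and Cox8a are the widely expressed isoforms of subunits that also have a muscle isoform, and Atpif1 is the inhibitor of ATP synthase. Cox8a measured 12.88, 13.24 and 13.01 in heart and 10.72, 11.06 and 10.92 in skeletal muscle (adjusted p = 2.08e-07). Cox7a1, the muscle isoform of another subunit, measured 15.61, 15.65 and 15.26 in heart and 15.13, 15.03 and 15.11 in skeletal muscle, a difference of 0.42 (adjusted p = 0.704). Ckmt2, the sarcomeric mitochondrial creatine kinase, was 14.61 to 14.94 in heart and 14.95 to 15.06 in skeletal muscle (−0.20, adjusted p = 0.974).

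**Figure D3:**
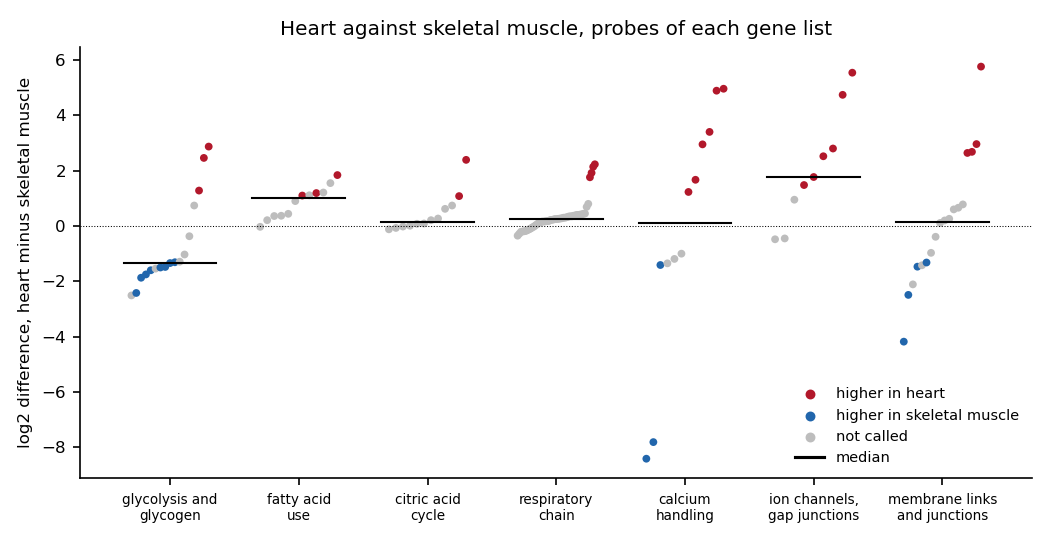
Log2 difference (heart minus skeletal muscle) of the detected probes of 7 gene lists, each point a probe in order of its difference, in red or blue where called and in grey where not, with the list median as a bar. Calcium handling and ion channel genes spread widely, most glycolysis probes lie below 0 (median −1.34), and 44 of the 48 respiratory chain probes are grey and close to 0.

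Other named genes with large differences were less easily grouped. In heart, Frmd5, a FERM-domain protein, was at least 23.6-fold higher (11.39, 11.29 and 11.79 against 4.96, 5.36 and 5.29), 9330158H04Rik at least 8.63-fold and Mov10l1, a helicase known from the germ line, at least 7.49-fold. In skeletal muscle, Sypl2, the mitsugumin of the triad junction, was at least 144-fold higher (13.7, 13.85 and 13.78 against 5.94, 5.57 and 5.29), Mettl21c, a muscle methyltransferase, at least 50.2-fold, and Padi2, a peptidylarginine deiminase, at least 42.4-fold. Neurl1a, a ubiquitin ligase, was 95.1 fold higher and Smox, which oxidises spermine, 34.8 fold, each detected on all 6 arrays without overlap. Synm, the intermediate filament protein synemin, was at least 27.5-fold higher than in heart and higher still in bladder (12.79). Gdf1, which shares a transcript with Cers1, was at least 15.3-fold higher, and Shisa4 at least 14-fold.

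Against the other 6 tissues, 323 of the 7853 probes detected on every array of both muscles (4.11%) were at least 2 fold higher in each muscle with a B-statistic above 0 in all 12 comparisons, and 105 of them carried 97 gene names. The smallest of the 12 differences had a median of 3.64 fold, and for 44 probes was 8 fold or more. Between heart and skeletal muscle 267 of the 323 were not called, 46 were higher in skeletal muscle and 10 in heart. The nearest other tissue was the pleural and pericardial pool for 137 probes, adipose for 63, bladder for 59, liver for 40, lung for 20 and peritoneal mesothelium for 4. On the median over the 323 probes, heart arrays stood at 10.32 to 10.40 and skeletal muscle arrays at 10.71 to 10.80. The pleural and pericardial arrays stood at 7.33 to 7.63 and the first adipose array at 7.89, against 6.52 and 6.62 on the other adipose arrays. Without these 4 arrays, and so without the comparison with that pool, 415 probes passed, 316 of them shared with the 323.

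The named genes highest above the other tissues belonged to several muscle systems. 2310002L09Rik, an uncharacterised RIKEN gene, led at 16.4 fold over the nearest tissue, measuring 12.26, 11.8 and 11.97 in heart, 13.59, 13.59 and 13.43 in skeletal muscle and 7.98 in the pleural and pericardial pool. The second Asph probe followed at 16.1 fold and Usp13, a deubiquitinase, at 13 fold, the latter measuring 8.87, 8.99 and 9.19 in heart and 10.04, 9.39 and 9.25 in skeletal muscle. Tuba4a, an alpha-tubulin, was 12.1 fold above liver and Ankrd23, a titin-binding ankyrin repeat protein, 11.9 fold above the pleural and pericardial pool. The alpha kinases Alpk2 and Alpk3, the latter a gene of cardiomyopathy in humans, were 10.8 and 8.48 fold above it, Dhrs7c, a dehydrogenase of the sarcoplasmic reticulum, 11.3 fold and Srl 7.83 fold. Alpk3 measured 10.86, 10.84 and 10.7 in heart and 12.08, 11.74 and 11.85 in skeletal muscle (−1.09, adjusted p = 0.145). Trak1, an adaptor for mitochondrial transport (8.24 fold), Txlnb (7.79 fold) and Rragd, a lysosomal GTPase (7.39 fold), completed the 12. The lowest signal of a detected probe was 6.51 to 7.07 on the muscle arrays. The nearest-tissue means of Usp13 (5.32), Trak1 (5.77) and Rragd (5.68) lay below it, and those of Asph (6.84) and Tuba4a (6.57) near it. Their folds, and any other fold over so low a signal, are therefore uncertain in size. None of the 12 was called between heart and skeletal muscle. Ankrd23 (−2.29, adjusted p = 0.0189) and Rragd (−1.47, adjusted p = 0.00875) passed 2 fold without overlap of the groups, but their B-statistics were below 0.

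**Figure D4:**
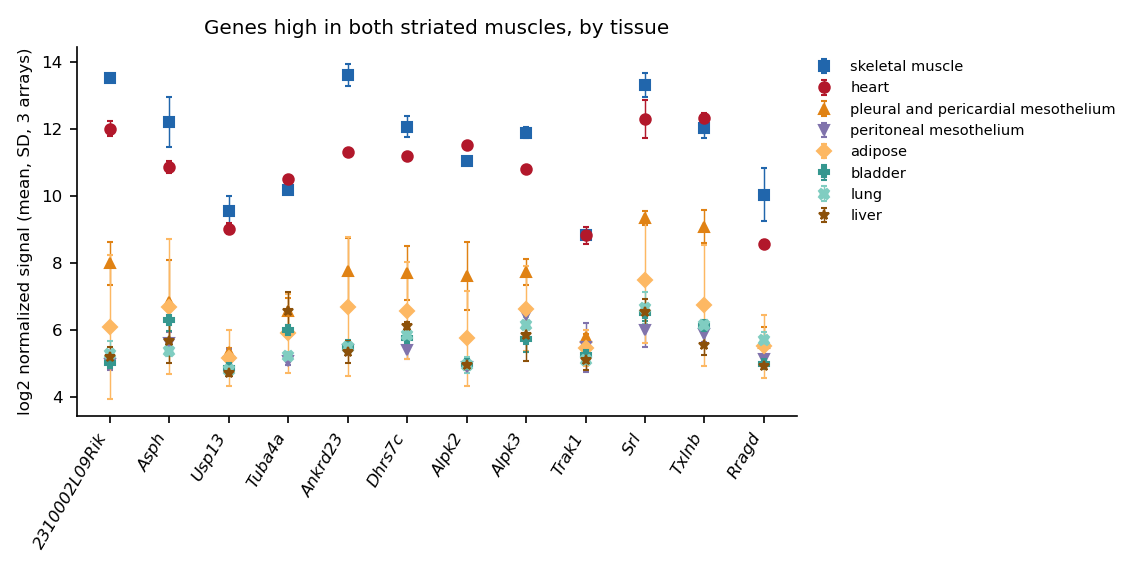
Mean log2 normalised signal with SD over 3 arrays in each of the 8 tissues for the 12 named genes highest in both muscles. Heart and skeletal muscle stand above the other 6 tissues for every gene, and the pleural and pericardial mesothelium is the nearest other tissue for 10 of the 12.

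Mitochondrial genes were well represented among these probes. Of 48 detected respiratory chain probes 13 (27.1%) were high in both muscles, against 3.74% of the 2805 named probes detected in both. Of 11 such probes of the tricarboxylic acid cycle list, which includes cytosolic isozymes, 4 (36.4%) were. They included Cox7a1 (5.11 fold above the nearest tissue), Atp5g1 (3.91 fold), Uqcrc1 (3.0 fold), Ndufa5 (2.92 fold), Ogdh (2.8 fold) and Sdhb (2.58 fold). Cox7a1 at 15.51 and 15.09 was the only one of these over 5 fold. Mitochondrial upkeep genes were there too, with Mfn1, a mitofusin (3.13 fold), Pink1, a mitophagy kinase (2.87 fold), Rhot2, a mitochondrial transport GTPase (4.53 fold), and Opa1, of the inner membrane (2.27 fold). Genes of the sarcomere and membrane skeleton included Synpo2l (6.28 fold), Smyd1, a striated muscle methyltransferase (4.57 fold), Klhl40, which stabilises the thin filament (4.44 fold) and Sgcb, beta-sarcoglycan (5.05 fold). Of these, Smyd1 and Klhl40 were also called higher in skeletal muscle than in heart. Rbm20, the splicing factor of titin, stood 7.17 fold above the nearest tissue with means of 11.8 in heart and 10.86 in skeletal muscle. Egln1, an oxygen-sensing hydroxylase, passed on both of its probes (5.78 and 4.84 fold). The genes of this paragraph outside the fixed lists were picked after their values were seen.

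Markers of other cells moved with the comparison. Some transcripts of mesothelium, which covers the heart as epicardium, were detected on every heart array and on no skeletal muscle array. Of these, Upk3b was at least 10.2-fold, Wt1 at least 3.38-fold and Msln at least 2.01-fold higher in heart (3 of 3 detected probes, of 7). Lrrn4, Krt19 and the other Upk3b probes were not detected on all 3 arrays of either muscle. The 3 detected probes entered the comparison through heart alone, so their direction was largely set by the filter. The summed signal of the 7 probes was 2030 to 2510 in heart and 213 to 252 in skeletal muscle. Immune markers were higher in heart for 3 of 3 detected probes, namely C1qa of macrophages (6.95 fold), Lyz2 (6.26 fold) and Cd74 of antigen-presenting cells (4.03 fold), with summed signals of 6270 to 9750 against 1510 to 1740, while Ptprc and Cd68 were detected on no array of either muscle. Hba-a1 of red cells was 3.04 fold and Emcn of endothelium 2.45 fold higher in heart, and Pecam1 was not called (0.56, adjusted p = 0.787). Hbb-b1 of red cells (0.77) and Egfl7 of endothelium (0.41) were not called either. The Hba-a1 call was lost without any 1 heart array or skeletal muscle array 1 (adjusted p = 0.00438 to 0.0136). Summed erythroid signals were 18000 to 22900 in heart and 4270 to 9010 in skeletal muscle, and endothelial ones 4280 to 4460 and 2050 to 2790. Col1a1 and Col1a2, the chains of type I collagen, were 4.39 and 5.01 fold higher in skeletal muscle, the Col1a2 call being lost with the 6 muscle arrays alone (adjusted p = 0.0148). Col3a1 (−1.26) and the 3 Dcn probes were not called, and the summed fibroblast signals overlapped (29000 to 29400 and 25700 to 31600). The share of the other differences that follows the cell make-up of the samples was not tested.

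Immunoglobulin probes, which report B cells and plasma cells, were a large named group on the heart side. Of 306 probes named as immunoglobulin genes, by gene ID or by identifier, 58 were compared, 45 were higher in heart and none in skeletal muscle, and all 45 had their highest mean in the pleural and pericardial pool. Only 2 immunoglobulin probes were detected on all skeletal muscle arrays. The rest entered through heart, so their direction was largely set by the filter. Over all named probes compared, 12.6% were higher in heart and 7.41% in skeletal muscle. Igkc, the kappa constant region (chromosome 6), measured 15.1, 14.26 and 13.81 in heart and 6.51, 5.79 and 5.45 in skeletal muscle, at least 176-fold higher (adjusted p = 9.95e-07), and 15.85 in the pool. The lambda genes Iglv1 (at least 20.6-fold) and IGLC2 (at least 11.3-fold) and a kappa variable segment (at least 7.95-fold) were also among the 15 largest differences, and the IGLC2 call was lost without heart array 1 or skeletal muscle array 1 or 2 (adjusted p = 0.00508 to 0.00972). The summed signal of the 45 probes was 56800 to 144000 in heart, 2850 to 2970 in skeletal muscle and 366000 to 460000 in the pool. Variable segments of a family are close in sequence, so a probe can read its neighbours. Without immunoglobulin probes 1240 probes were higher in heart.

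The 3 arrays of a tissue were not alike for every gene. On heart array 1, 20 probes stood at least 4 fold from both other heart arrays, 11 above and 9 below, and 17 of them were called between the tissues. The high ones included immunoglobulin segments such as IGKV9-124 (11.42, against 8.06 and 7.98) and Iglv1 (12.83, against 10.76 and 10.28). The low ones included Bpifa1, a secreted airway protein (8.74, against 12.47 and 12.58), and Ltf, lactoferrin (8.26, against 11.23 and 12.22), both of which are abundant in lung here (11.4 and 10.21). Bpifa1 was at least 20.2-fold higher in heart than in skeletal muscle and Ltf at least 12.5-fold, with fitted differences of 6.10 and 5.09. Without heart array 1 these were 7.36 and 6.25, and fitted on the 6 muscle arrays alone neither was called. Heart arrays 2 and 3 had 0 and 1 such probes. Skeletal muscle array 1 stood at least 4 fold below both others for 13 probes, 1 of which was called between the tissues. They included Myh1, Lsm12 (7.19, against 9.88 and 9.7), Hnrnpa2b1 (8.5, against 10.74 and 10.86) and Mat2a (7.81, against 10.02 and 10.16), and skeletal muscle arrays 2 and 3 had none.

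**Figure D5:**
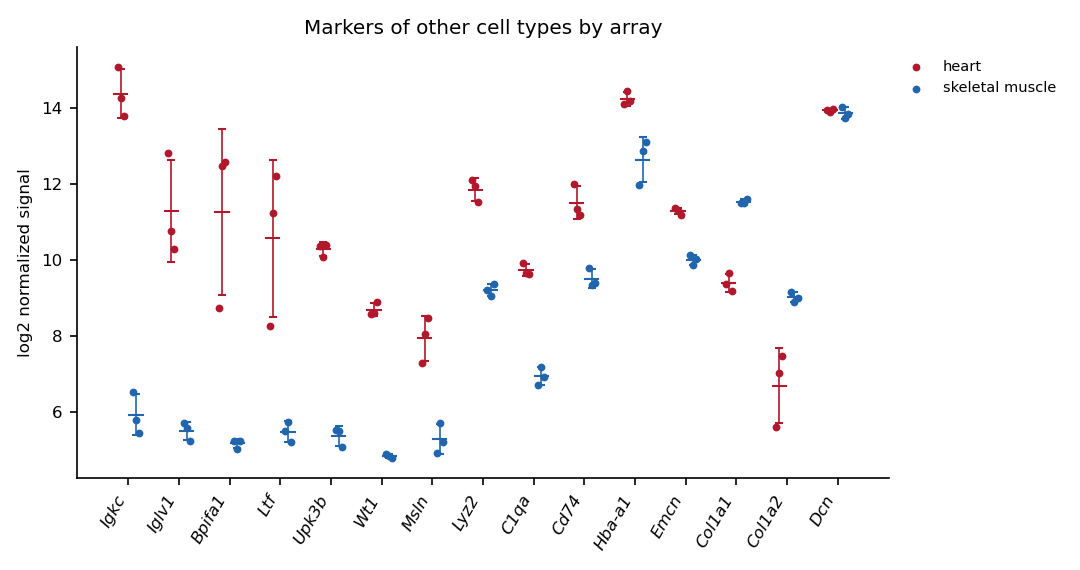
Log2 normalised signal of genes of other cell types and of immunoglobulin, Bpifa1 and Ltf on the 3 heart (red) and 3 skeletal muscle (blue) arrays, each point an array, with the mean and SD as bars. Upk3b, Wt1, Msln, Lyz2, C1qa and Cd74 are higher on every heart array, Col1a1 and Col1a2 are higher on every skeletal muscle array, and heart array 1 is apart for Iglv1, Bpifa1 and Ltf.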

How the data were processed

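Total RNA of each tissue was amplified, biotin-labelled and hybridised to Illumina Mouse Sentrix-6 bead arrays of the first version. The authors deposited, for each of 24 arrays, a summarised intensity per probe, not yet normalised, and a detection score, which is near 1 for a probe above the negative controls. They also deposited processed values, used here on a log2 scale as an alternative. Intensities were background-corrected by normexp (offset 16, negative controls inferred from the scores, leaving out 10 probes whose scores were averages), quantile normalised and taken to log2. Tissue means were fitted by limma 3.58.1 in R 4.3.3 with 1 mean per tissue over all 24 arrays. The methods of the study name quantile normalisation, limma B-statistics and pairwise comparisons and state no block, and the joint fit was chosen here. A call needed a B-statistic above 0 (assumed share of changed probes 0.01) and 2 fold, and Benjamini-Hochberg adjusted p-values run over all 46120 probes. The fit was tested on simulated data. Each array is a bulk sample with 1 value per probe, so the number of arrays limits the precision, and signals between probes were not compared.

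Probes were named by the gene ID or identifier in the probe name, or by the study's lists, for 11407 probes. The other 34713 are unnamed here. Genes in the text include the 15 named genes with the largest difference in each direction (the brightest probe per gene). They also include the 12 highest in both muscles and members of fixed gene lists. Some further genes high in both muscles were picked after their values were seen. Others are given for a spread between arrays or a promoter match. Members and lists were chosen with earlier results of these data known. Promoters are RefSeq sequences of build GRCm38.p6, the first entry listed per gene, without chromosome 18. Alternatives were another background, median scaling, the deposited processed values, the muscle arrays alone, other call rules and filters and a replicate block. Each heart or skeletal muscle array was also left out in turn. Further settings left out the first adipose array, mesothelium arrays or both.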

Additional observations from a re-analysis of the deposited data

How the results depend on the processing

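Among the 199 probes of named and listed genes that were followed, none changed direction with a call under the alternatives run. The counts of probes higher in heart, higher in skeletal muscle and high in both muscles (1285, 1004 and 323) stayed within 1.5 times under most settings. With the averaged scores left in among the negative controls, 637 and 646 probes were called, 563 and 541 of them shared with the calls above, and the heart share of calls moved from 56.1% to 49.6%. Requiring detection on all arrays of both muscles gave 564 and 553, since probes undetected in the lower tissue then leave the count. Fitting only the arrays of the tissues compared gave 211 probes high in both muscles, 202 of them shared, with fewer arrays behind the spread. Leaving out each heart or skeletal muscle array in turn gave 1110 to 1241 probes higher in heart, 892 to 967 higher in skeletal muscle and 291 to 323 high in both. Leaving out the first adipose array, chosen after seeing the data as were all settings without adipose or mesothelium arrays, gave 1359, 1053 and 381.

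Deviations of same-numbered heart and skeletal muscle arrays from their tissue means correlated at −0.07, −0.05 and −0.19, and differently numbered ones at −0.05 to 0.13. With 3 arrays per tissue, these values cannot decide whether same-numbered arrays came from the same animals. With the replicate number as a block, 1308, 1043 and 338 probes were called. Of the 199 probes, called or not, 198 kept their status under the block, 196 with the processed values and 163 with the averaged scores, where 30 lost a call and 6 gained one. Leaving out 1 muscle array ended between 3 and 9 calls among them.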
